A study of Mus musculus with 19 samples.

Results

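The liver response to remote limb ischemic conditioning (RIC), in which blood flow to a limb is interrupted and restored, was examined in mice on normal chow (NC). The comparison set 5 NC RIC against 5 NC sham samples, 10 of the 19 liver samples of the study. All table entries with a gene name were members, 52110 of 55335, and the 10577 with a mean of at least 1 FPKM over the 19 samples were tested. All groups were wild type (WT) liver, and NC sham received a sham procedure in place of RIC. No source used here states the strain, sex, age, RIC schedule or time between RIC and harvest. The other 9 samples came from mice on CDAHFD, a high-fat diet deficient in choline, whose protein is given as defined amino acids, used to produce steatohepatitis (5 sham, 4 RIC). They shared the estimate of the spread and are compared with the chow samples at the end. The labels number the replicates without saying that each is a separate animal, so p-values measure only the spread between these samples, which may be technical. In bulk liver, fewer cells of a type and less RNA per cell cannot be told apart.

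Several of the gene groups described here have well-known controls. Heat shock factors bind heat shock elements in promoters and switch on chaperones, which refold damaged proteins. Metallothioneins are small metal-binding proteins whose genes respond through metal response elements, and also to glucocorticoids and inflammation. Hepcidin, made by hepatocytes, lowers iron export, and PPAR-alpha drives fatty acid oxidation in the fasted liver.

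The promoters of 4 genes that were called different are shown because both families are classic examples of these elements. The sequences are RefSeq promoters on build GRCm38.p6, each 300 bases long, from 250 before the start site to 50 after it. Of the 125 called genes, 87 had an entry in that table. Capitals mark the heat shock element core GAANNTTC in Hspa1b (chr17:34959189-34959488, minus strand) and Bag3 (chr7:128523333-128523632, plus strand). In Mt1 (chr8:94178839-94179138, plus strand) and Mt2 (chr8:94172368-94172667, plus strand) they mark TGCNCNC, a loose form of the metal response element core, in which N is any base. Not every match of this loose form need be a metal response element.
Hspa1b: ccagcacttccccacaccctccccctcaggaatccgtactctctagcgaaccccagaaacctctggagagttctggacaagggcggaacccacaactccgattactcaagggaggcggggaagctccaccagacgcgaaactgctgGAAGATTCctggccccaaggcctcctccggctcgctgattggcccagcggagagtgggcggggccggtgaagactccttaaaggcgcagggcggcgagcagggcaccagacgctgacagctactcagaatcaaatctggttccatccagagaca
Bag3: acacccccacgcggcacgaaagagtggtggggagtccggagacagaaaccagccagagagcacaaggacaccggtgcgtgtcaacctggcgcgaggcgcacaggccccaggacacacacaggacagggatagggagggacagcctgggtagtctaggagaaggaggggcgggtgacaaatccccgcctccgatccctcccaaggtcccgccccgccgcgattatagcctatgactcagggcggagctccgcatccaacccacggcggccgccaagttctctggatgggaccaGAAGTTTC
Mt1: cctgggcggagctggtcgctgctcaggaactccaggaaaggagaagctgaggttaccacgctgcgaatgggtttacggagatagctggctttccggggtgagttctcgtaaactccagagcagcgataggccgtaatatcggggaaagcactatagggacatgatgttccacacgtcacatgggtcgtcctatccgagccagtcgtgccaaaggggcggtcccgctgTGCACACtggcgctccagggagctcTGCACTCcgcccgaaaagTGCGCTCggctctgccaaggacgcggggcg
Mt2: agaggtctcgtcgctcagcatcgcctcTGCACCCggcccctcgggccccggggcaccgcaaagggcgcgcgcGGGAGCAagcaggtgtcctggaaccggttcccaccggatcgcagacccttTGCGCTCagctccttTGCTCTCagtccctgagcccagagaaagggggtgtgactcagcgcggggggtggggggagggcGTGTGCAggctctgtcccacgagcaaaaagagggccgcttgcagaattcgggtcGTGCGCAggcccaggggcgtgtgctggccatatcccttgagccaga

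Both strands were searched, and no match overlapped a match of the other motif. Hspa1b held 1 heat shock core, starting 104 bases before the start site, and Bag3 held 1 that started 42 bases after it. Of 32851 promoters listed, 7.86% held at least 1 such core. Among called genes with an entry, 4 of 63 that were lower held one (Bag3, Hspa1a, Hspa1b and Plbd1) and 1 of 24 that were higher (Cep57). The called chaperone Dnajb1 held 0. Of 17 heat shock genes with an entry 11 held one, including Chordc1 and Hsph1, which were not called. Mt1 held 3 matches of the loose metal response pattern and Mt2 held 6. At least 1 match stood in 51% of promoters, at least 3 in 7.1% and at least 6 in 0.225%. Among called genes with an entry, 4 of 24 that were higher and 9 of 63 that were lower held at least 3. A gene with several promoters counted if any of them reached the cut, here and above, whereas the percentages are shares of single promoters. The gene counts can thus run higher. The matches describe the sequences only.

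The 10 chow libraries resembled each other closely. Median correlations of log2(FPKM + 1) were 0.984 within NC sham, 0.982 within NC RIC and 0.980 between them. On the first principal component of these samples (23.4% of the variance) NC sham lay at -16.7 to -1.65 and NC RIC at 4.17 to 15.5. On the second (14.4%) NC sham 3 and NC RIC 4 lay apart, at -15.5 and -19.8 against -1.18 to 10.2 in the other 8. A rough estimate from low values, which was not tested, put the depth at 16.1 to 21.7 M reads per sample. Alb, which encodes serum albumin and defines hepatocytes, stood at 27316 to 55778 FPKM. Of 16 skeletal muscle markers 10 were listed at 0 in all 10 samples.

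In the values as deposited, RIC on chow was followed by a small set of differences, most of them falls. Many of these calls depended on the scaling or on single libraries, as given below. The stress chaperones Hspa1b, Hspa1a, Dnajb1 and Hspa8 fell, as did the hormone gene Fgf21 and genes of lipid and glucose metabolism such as Cpt1a, Acacb and Txnip. The metallothioneins Mt1 and Mt2, the linker histone gene Hist1h1c, the glutathione transferases Gsta1, Gsta2 and Mgst3 and the hepcidin gene Hamp rose. Of 10577 genes tested with limma, 125 (1.18%) were called at a Benjamini-Hochberg adjusted p under 0.05, 34 higher (0.321%) and 91 lower (0.860%). At an unadjusted p under 0.05, a cut used below for lists with few calls, 1747 genes (16.5%) passed, 382 higher and 1365 lower. The 16.5% is the share of all genes to set beside each such count below. For counts of called list members below, these shares are 0.321% for rises and 0.860% for falls. The median size of a called difference was 0.50 on the log2(FPKM + 1) scale, on which all differences here are given. Rises of at least 1 were called for 7 genes and falls of at least 1 for 5. The samples of the groups did not overlap for 105 genes that were higher (0.993%) and 397 that were lower (3.75%), 4.75% in either direction. Of the called genes 98 showed no overlap and 27 did.

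Whether rises or falls prevailed among the calls varied with the scaling. As deposited, 64.8% of all tested genes lay below 0 and the median difference was -0.06. The 64.8% is the share of all genes to set beside the count below 0, as deposited, of each list. Of the calls, 27.2% were higher, against 14.8% (16 higher, 92 lower) with a common sum, 62.2% (79 higher, 48 lower) after median-ratio scaling and 64.4% (38 higher, 21 lower) after quantile normalization. The summed FPKM were 490879 ± 7664 in NC sham and 502693 ± 8370 in NC RIC (mean ± SD, n = 5 each, two-sided exact permutation p = 0.0635). The number of calls depended on single libraries: 31 genes were called without NC sham 1, 13 without NC sham 2, 53 without NC sham 3, 184 without NC sham 4 and 24 without NC sham 5. It was 122 without NC RIC 1, 15 without NC RIC 2, 49 without NC RIC 3, 75 without NC RIC 4 and 80 without NC RIC 5. Across the 20 alternative settings 10 genes were called in every one that tested them. These were Hspa1b, Dnajb1, Palld, Tbc1d8, P4ha1 and Mmd, which were lower, Hist1h1c and Mgst3, which were higher, and 2 genes annotated as pseudogenes, Gm12226, which was lower, and Gm21049, which was higher, both outside the rule for named genes and named after their values were seen. The spread was shared with the CDAHFD samples, and leaving out 1 of those also moved the count: to 63, 62 and 81 without CDAHFD sham 3, 4 and 5 and to 78 and 75 without CDAHFD RIC 2 and 4. It was 100 to 125 when 1 of the other 4 was left out. At least 1 of these 9 fits, chosen after the data were seen, ended the calls of 20 of the 50 called genes described here: Bag3, Ubb, Hamp, Cyp39a1, Fgf21, Elovl3, Txnip, Pcx, Slc25a34, Pxmp4, Pex11g, Atf5, Scap, Alb, H3f3b, mt-Nd1, Xpo1, Mrpl53, Apol9a and Igkv1-110. The 10 genes called in every alternative stayed called in all 9. A fit of the 10 chow samples alone tested 119 of the 125 called genes and called 48 of them again. Among the genes named, it ended the calls of Bag3, Hsf2, Mt2, Elovl3, Txnip, Pfkfb1, Pcx, Slc25a34, Paqr9, Pxmp4 and Pex11g. Those of Atf5, Scap, Got2, Alb, H3f3b, Rpl3-ps1, Xpo1, Mrpl53, Mettl18 and Apol9a also ended.

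**Figure D1:**
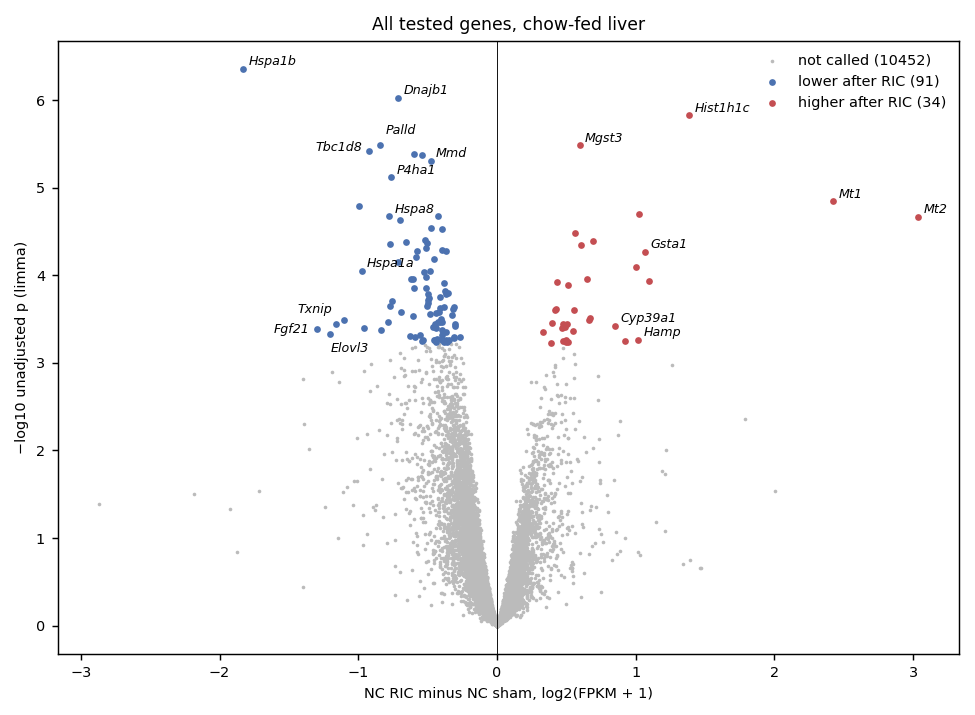
Each point is a tested gene, with the difference NC RIC minus NC sham in log2(FPKM + 1) on the x axis and −log10 of the unadjusted limma p on the y axis. Blue points are the 91 genes called lower and red points the 34 called higher; Mt1 and Mt2 lie farthest to the right and Hspa1b highest on the left.

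Chaperones of the heat shock response made up a group of falls. Of 21 tested heat shock genes 5 fell and 0 rose, against 0.860% and 0.321% of all genes. As deposited 18 lay below 0, against 64.8% of all genes, and 15 did after median-ratio or quantile scaling. The median of the list was -0.22 against -0.06 for all genes. Hspa1b, which encodes the stress-inducible HSP70 (chromosome 17, 34956436 to 34959238, coordinates from the GENCODE annotation of mm10 here and elsewhere), stood at 17.9, 20.7, 8.82, 9.96 and 15.1 FPKM in NC sham 1 to 5. In NC RIC 1 to 5 it stood at 2.47, 3.15, 2.26, 3.88 and 4.48 FPKM. Every NC RIC sample lay below every NC sham sample, and the spread was wider in NC sham, where samples 3 and 4 were lowest. The gene fell 4.46-fold, from 14.5 ± 5.08 to 3.25 ± 0.937 FPKM (mean ± SD, n = 5 in each group, as for all means here), with a log2 difference of -1.83 ± 0.24 (SE) and an adjusted p of 0.00462 by limma. Its near-identical copy Hspa1a (chromosome 17, 34969190 to 34972156) read 2.90, 3.47, 1.78, 1.80 and 2.30 FPKM in NC sham and 0.587, 0.723, 0.401, 0.861 and 1.14 in NC RIC, also without overlap (log2 difference -0.98 ± 0.20, adjusted p = 0.0255). These copies share most of their sequence, so each value is uncertain as that of 1 gene.

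Dnajb1, the HSP40 cochaperone that hands clients to HSP70 (chromosome 8, 83608193 to 83612653), stood at 12.3, 10.5, 7.91, 9.16 and 9.32 FPKM in NC sham and at 4.94, 5.75, 5.88, 5.28 and 6.01 in NC RIC. The groups were separate, and the NC RIC samples lay close together. Dnajb1 fell 1.77-fold (log2 difference -0.71 ± 0.10, adjusted p = 0.00495). Hspa8, the constitutive HSC70 and by far the most abundant of these transcripts per length (chromosome 9, 40800984 to 40810087), stood at 413, 507, 367, 366 and 418 FPKM in NC sham. It stood at 201, 229.8, 331, 224 and 229 FPKM in NC RIC, where sample 3 was high and the other 4 lay between 201 and 229.8, and the groups did not overlap. Hspa8 fell 1.70-fold (-0.78 ± 0.14, adjusted p = 0.0141). Bag3, a cochaperone that links HSP70 to autophagy, fell from 5.97 ± 1.19 to 3.81 ± 0.838 FPKM (-0.53, adjusted p = 0.0496), with overlap at NC RIC 5 (5.18) and NC sham 4 (4.17).

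Outside the heat shock list, Hsf2, a heat shock transcription factor, fell from 3.88 ± 0.633 to 2.43 ± 0.397 FPKM (-0.51, adjusted p = 0.0281), and the polyubiquitin gene Ubb from 180.2 ± 8.35 to 132 ± 9.03 FPKM (-0.45, adjusted p = 0.0496). Other chaperones did not pass. The HSP110 gene Hsph1 stood at 17.2 ± 4.17 against 12.3 ± 3.61 FPKM (adjusted p = 0.215), the HSP90 cochaperone Chordc1 at 11.3 ± 1.86 against 8.54 ± 1.83 FPKM (adjusted p = 0.162), Hsp90ab1 at 178 ± 20.6 against 146 ± 22.5 FPKM (adjusted p = 0.175) and the HSP70-HSP90 adaptor Stip1 at 28.2 ± 5.17 against 23.5 ± 4.45 FPKM (adjusted p = 0.390). Their differences were -0.45 to -0.25, with overlapping samples. Of 20 ER chaperone and unfolded protein response genes 0 were called (3 at an unadjusted p under 0.05, a share near that of all genes), with a median of -0.28 and 3 above 0, or 5 above 0 after median-ratio or quantile scaling.

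Hspa1b and Dnajb1 were called in each of the 20 alternatives. The Hspa8 call ended without NC sham 2 or NC RIC 2 (adjusted p up to 0.0607) and that of Hspa1a without NC sham 1, 2 or 5 or NC RIC 2 or 3 (up to 0.0789). The Hsf2 call ended without NC sham 1, 2 or 5 or NC RIC 2 or 4 (up to 0.0920), that of Bag3 without any chow sample but NC sham 4 or NC RIC 5 (up to 0.142) and that of Ubb without any chow sample but NC sham 4 (up to 0.132). Leaving out 1 chow library gave 2 to 5 called heat shock genes.

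**Figure D2:**
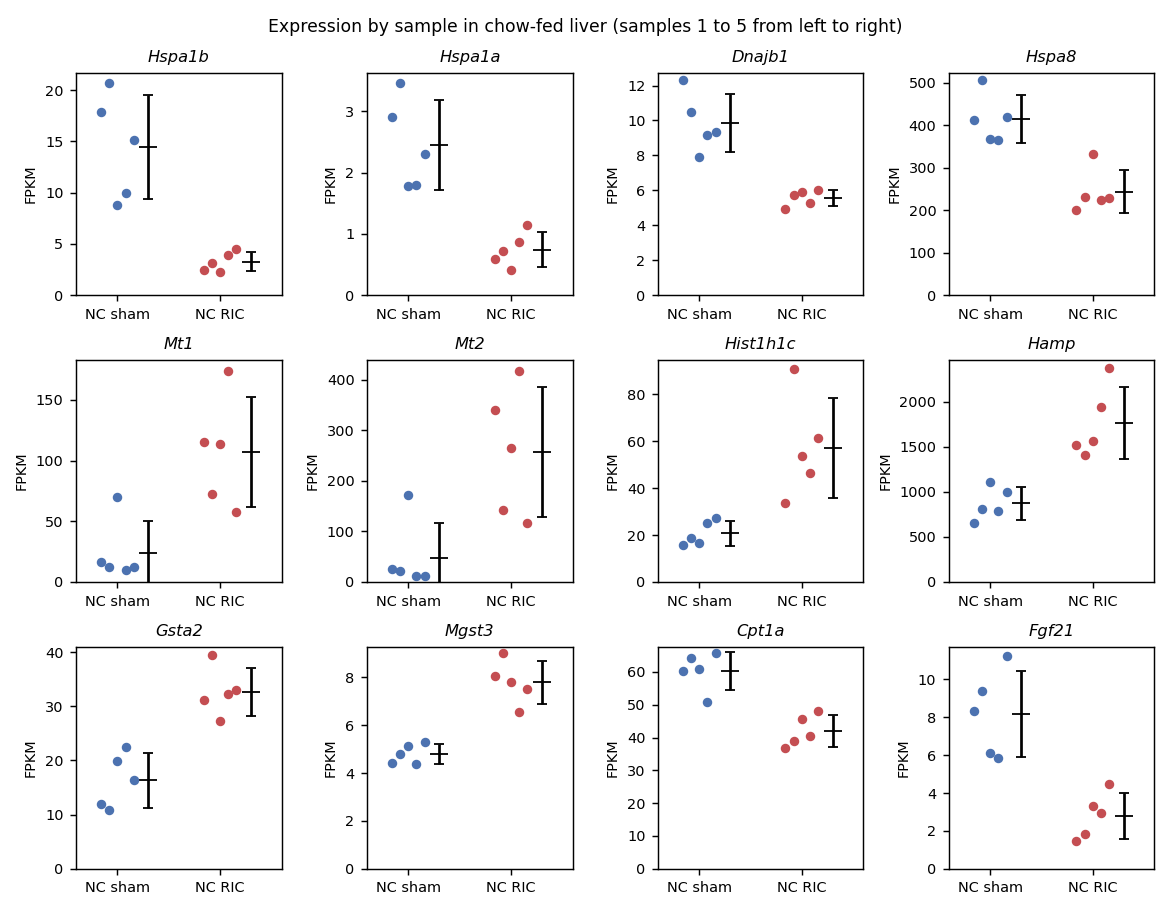
FPKM of 12 genes in each chow sample, with samples 1 to 5 from left to right within a group, and the mean ± SD (n = 5) beside them; each panel has its own y axis from 0, which hides the part of the Mt1 and Mt2 NC sham bars below 0. Both groups are separate in every panel except Mt1 and Mt2, where NC sham 3 reaches 70.3 and 171 FPKM.

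Metallothionein transcripts rose. Mt1 (chromosome 8, 94179082 to 94180327) stood at 16.2, 12.1, 70.3, 10.1 and 11.9 FPKM in NC sham and at 115, 72.6, 114, 174 and 57.9 in NC RIC. Mt2 (chromosome 8, 94172664 to 94173568) stood at 24.7, 20.6, 171, 12.2 and 12.4 FPKM in NC sham and at 341, 142, 266, 417 and 116 in NC RIC. For both genes 4 NC sham samples were low and NC sham 3 lay inside the NC RIC range, so the groups overlapped through that library. Mt1 rose 4.43-fold by the ratio of means (log2 difference 2.42 ± 0.42, adjusted p = 0.0138) and Mt2 5.31-fold (3.04 ± 0.54, adjusted p = 0.0141). Without NC sham 3 the log2 differences were 2.90 (adjusted p = 8.29e-05) and 3.69 (7.38e-05). Without NC sham 2, one of the low samples, neither passed (adjusted p = 0.0537 and 0.0569), and Mt2 missed the threshold in a fit of the 10 chow samples alone (0.0596).

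Of the zinc transporters with values here, the zinc exporter Slc30a1 stood at 7.34 ± 0.943 against 8.86 ± 0.777 FPKM (adjusted p = 0.233) and the zinc and iron importer Slc39a14 at 9.43 ± 1.33 against 11.3 ± 1.89 FPKM (adjusted p = 0.344). Hamp, which encodes hepcidin (chromosome 7, 30942368 to 30944032), stood at 654, 816, 1107, 786 and 1000.3 FPKM in NC sham and at 1527, 1415, 1571, 1944 and 2379 in NC RIC. No sample overlapped, and Hamp rose 2.03-fold (1.02 ± 0.24, adjusted p = 0.0496), a call that ended when any 1 of the 10 chow libraries was left out (adjusted p up to 0.138). Its near copy Hamp2 stood at 10.3 ± 7.49 against 22.7 ± 8.64 FPKM (1.22, adjusted p = 0.159), and reads may be split between them. The transferrin receptor Tfrc stood at 9.05 ± 2.63 against 6.56 ± 0.328 FPKM (adjusted p = 0.359). Of the 19 tested genes of metallothioneins, zinc and iron 3 rose and 0 fell, with a median of -0.01 that was 0.05 after median-ratio scaling. Leaving out 1 chow library gave 0 to 2 calls higher.

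Glutathione transferases, which attach glutathione to reactive compounds, were the other group with several rises. Of 31 conjugating enzymes 2 rose (Gsta1 and Gsta2), 0 fell and 20 lay above 0, with a median of 0.20 against -0.06 for all genes. Gsta2 (chromosome 9, 78331018 to 78355788) stood at 11.9, 10.8, 19.8, 22.6 and 16.4 FPKM in NC sham and at 31.1, 39.5, 27.2, 32.2 and 33.004 in NC RIC, without overlap (0.999 ± 0.20, adjusted p = 0.0246). Gsta1 (chromosome 9, 78230656 to 78242684) stood at 1.27, 0.481, 1.50, 1.27 and 1.48 FPKM in NC sham and at 2.99, 4.96, 2.14, 3.71 and 4.48 in NC RIC, again without overlap (1.07 ± 0.21, adjusted p = 0.0183). These genes are near copies, so single values are uncertain.

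Mgst3, a membrane-bound glutathione transferase and peroxidase (chromosome 1, 167371966 to 167393841), stood at 4.43, 4.80, 5.14, 4.36 and 5.28 FPKM in NC sham and at 8.07, 9.03, 7.80, 6.54 and 7.50 in NC RIC. Its samples were tight and separate, and it rose 1.62-fold (0.60 ± 0.09, adjusted p = 0.00566). Gstm1 was higher in every NC RIC sample but not called, at 122 ± 13.01 against 173 ± 26.6 FPKM (adjusted p = 0.121). Gstm2 stood at 17.3 ± 4.05 against 10.05 ± 2.80 FPKM (adjusted p = 0.0754) and the glucuronosyltransferase Ugt2a3 at 179 ± 20.6 against 230.0 ± 25.7 FPKM (adjusted p = 0.173). Ugt2a3 was higher in every NC RIC sample, and Gstm2 overlapped. Cyp39a1, a bile acid and oxysterol hydroxylase, rose from 13.3 ± 2.13 to 25.1 ± 5.35 FPKM (0.85, adjusted p = 0.0455), without overlap. Of 23 NRF2 and oxidative stress genes 0 were called (7 at an unadjusted p under 0.05, against 16.5% of all genes), with a median of -0.12, and the heme oxygenase Hmox1 stood at 5.29 ± 1.27 against 3.58 ± 1.11 FPKM (adjusted p = 0.241).

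The Mgst3 call held in all 20 alternatives. The Gsta1 call ended without NC sham 2 or NC RIC 2 (adjusted p up to 0.0667), that of Gsta2 without NC sham 1, 2 or 5 or NC RIC 2 (up to 0.0790), and that of Cyp39a1 without any chow library but NC sham 4 or NC RIC 4 (up to 0.129).

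**Figure D3:**
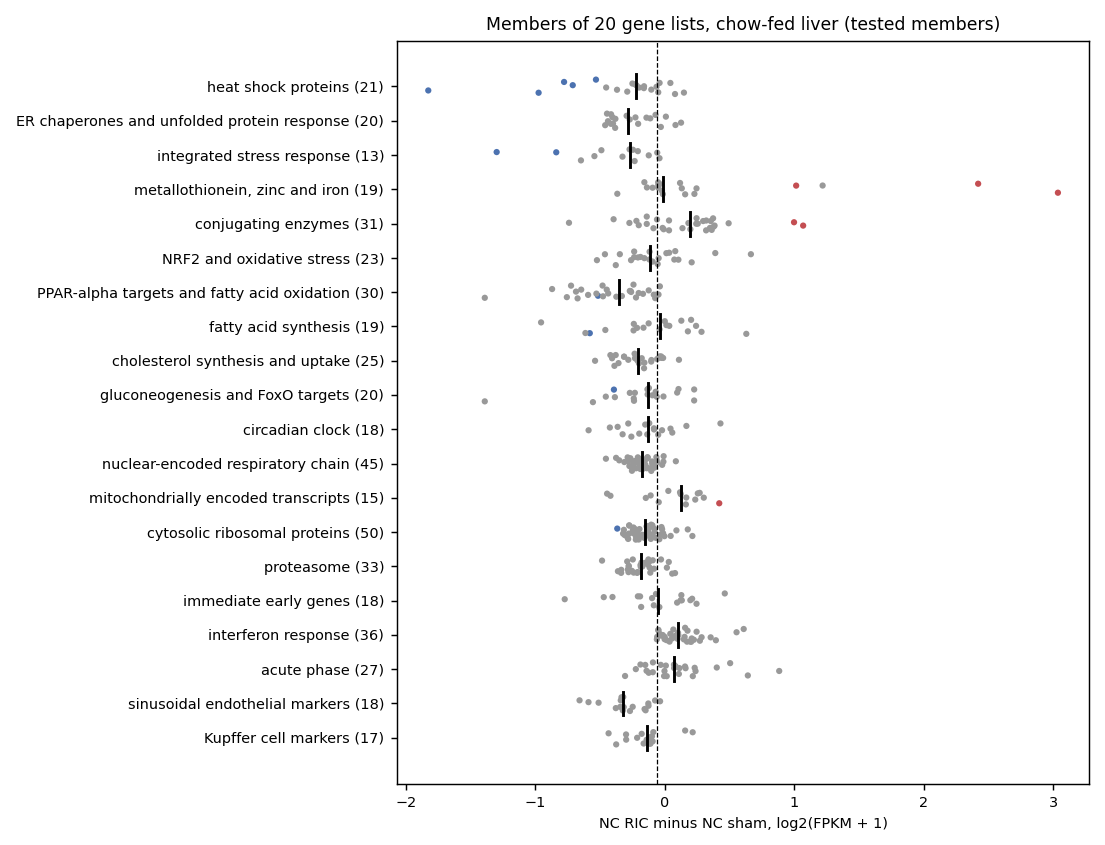
Differences NC RIC minus NC sham in log2(FPKM + 1) of the tested members of 20 gene lists, with the number tested in brackets; blue and red points were called lower and higher, grey ones were not called, the black bars are list medians and the dashed line is the median of all genes (-0.06). PPAR-alpha targets, integrated stress response genes and sinusoidal endothelial markers lie wholly below 0, and the largest rises are Mt1 and Mt2.

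In fatty acid oxidation 1 gene fell, Cpt1a. Of 30 PPAR-alpha targets and fatty acid oxidation genes 1 fell and 0 rose, 15 had an unadjusted p under 0.05 (16.5% of all genes did), and all 30 lay below 0 as deposited, with a median of -0.35. After median-ratio or quantile scaling 25 lay below 0 and the median was -0.27 or -0.24. Cpt1a, which controls fatty acid entry into mitochondria (chromosome 19, 3322334 to 3385733), stood at 60.3, 64.3, 60.8, 50.95 and 65.7 FPKM in NC sham and at 36.7, 38.9, 45.7, 40.5 and 48.1 in NC RIC. All NC RIC samples were lower than all NC sham samples, a fall of 1.44-fold (-0.52 ± 0.10, adjusted p = 0.0182). The carnitine carrier Slc25a20 stood at 36.5 ± 3.63 against 26.7 ± 3.02 FPKM (adjusted p = 0.0617), the pyruvate dehydrogenase kinase Pdk4 at 22.2 ± 18.1 against 6.50 ± 3.52 FPKM (-1.39, adjusted p = 0.126) and the lipid droplet coat Plin2 at 189 ± 78.8 against 115 ± 37.2 FPKM (adjusted p = 0.175). None of these 3 passed. Slc25a20 was lower in every NC RIC sample, while Pdk4 and Plin2 overlapped, and Pdk4 ranged from 7.81 to 50.6 FPKM within NC sham. The peroxisomal membrane genes Pxmp4 (41.8 ± 8.87 to 27.1 ± 3.48 FPKM, -0.59) and Pex11g (8.66 ± 1.34 to 6.07 ± 0.792 FPKM, -0.45), outside that list, fell (adjusted p = 0.0496 and 0.0445), both with overlapping samples.

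In fatty acid synthesis 1 of 19 genes fell. Acacb, the mitochondrial acetyl-CoA carboxylase whose product malonyl-CoA inhibits CPT1 (chromosome 5, 114146535 to 114250761), stood at 3.24, 4.85, 3.77, 3.05 and 4.41 FPKM in NC sham and at 2.33, 1.90, 2.40, 2.24 and 2.27 in NC RIC. Every NC RIC sample was lower, and the NC RIC values lay close together (-0.58 ± 0.11, adjusted p = 0.0183). The fatty acid elongase Elovl3 stood at 280.3, 189.9, 152, 108 and 149 FPKM in NC sham and at 106, 71.9, 38.97, 61.4 and 107 in NC RIC, just without overlap, and fell 2.28-fold (-1.20 ± 0.28, adjusted p = 0.0491). Lpin2, a phosphatidate phosphatase of triglyceride synthesis, fell from 53.001 ± 6.31 to 34.2 ± 4.51 FPKM (-0.62, adjusted p = 0.0281), and Scap, the escort of SREBP, from 5.78 ± 0.442 to 4.49 ± 0.593 FPKM (-0.31, adjusted p = 0.0496). Of 25 cholesterol genes 0 were called (5 at an unadjusted p under 0.05) and 1 lay above 0, or 6 after median-ratio or quantile scaling (median -0.21 as deposited). Paqr9, a membrane receptor of the progestin and adiponectin receptor family, fell from 35.1 ± 7.80 to 20.1 ± 4.58 FPKM (-0.77, adjusted p = 0.0182), and the mitochondrial carrier Slc25a34 from 6.59 ± 1.61 to 3.63 ± 0.389 FPKM (-0.69, adjusted p = 0.0414). Both were separate between the groups.

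Among genes of glucose handling, Txnip, an inhibitor of glucose uptake and of thioredoxin (chromosome 3, 96557957 to 96561883), stood at 40.5, 54.1, 60.3, 52.8 and 88.8 FPKM in NC sham and at 12.5, 23.3, 34.6, 46.96 and 20.5 in NC RIC. It fell 2.15-fold (-1.16 ± 0.27, adjusted p = 0.0445), with NC RIC 4 above NC sham 1. Pfkfb1, the liver enzyme that sets fructose 2,6-bisphosphate, fell from 17.6 ± 3.62 to 11.1 ± 0.914 FPKM (-0.60, adjusted p = 0.0310), pyruvate carboxylase (Pcx) from 63.7 ± 9.73 to 47.96 ± 4.20 FPKM (-0.39, adjusted p = 0.0496), the transcription factor Klf11 from 3.73 ± 0.515 to 2.11 ± 0.443 FPKM (-0.61, adjusted p = 0.0281) and the mitochondrial aspartate aminotransferase Got2 from 53.7 ± 4.78 to 41.7 ± 2.46 FPKM (-0.36, adjusted p = 0.0333). These 4 showed no overlap. Not called were Pck1, at 580.4 ± 50.1 against 396 ± 51.8 FPKM (adjusted p = 0.238), and the fasting-induced Igfbp1, at 122 ± 39.5 against 106 ± 79.9 FPKM (adjusted p = 0.752). Pck1 was lower in every NC RIC sample (314 to 448 FPKM) than in every NC sham sample (527 to 653), while Igfbp1 overlapped. Of 20 gluconeogenesis and FoxO genes 1 fell and 0 rose (median -0.13).

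Fgf21, a fasting and stress hormone of the liver (chromosome 7, 45613886 to 45615490), stood at 8.35, 9.37, 6.11, 5.85 and 11.2 FPKM in NC sham and at 1.44, 1.82, 3.30, 2.94 and 4.48 in NC RIC. All NC RIC values were lower, a fall of 2.93-fold (-1.30 ± 0.30, adjusted p = 0.0460). Fgf21 is also a target of the integrated stress response, the program of ATF4. Of 13 tested genes of that program 2 fell (Fgf21 and Atf5), 0 rose and 13 lay below 0, or 12 after median-ratio or quantile scaling (median -0.27 as deposited). The transcription factor Atf5 fell from 93.1 ± 17.2 to 53.2 ± 17.8 FPKM (-0.84, adjusted p = 0.0460). The hormone Gdf15 (1.57 ± 0.400 against 0.632 ± 0.180 FPKM, adjusted p = 0.105) and the transcription factor Ddit3 (3.27 ± 0.540 against 2.02 ± 0.186 FPKM, adjusted p = 0.0804) were lower in every NC RIC sample without a call.

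The lipid, glucose and integrated stress response calls described above were all lost with single libraries. Cpt1a and Acacb lost theirs without NC sham 2 or 5 or NC RIC 2 (adjusted p up to 0.0616 and 0.0667), and Paqr9 without NC sham 1, 2 or 5 or NC RIC 2 (up to 0.0622). Without NC sham 2 and, apart from it, without NC sham 5 the calls of Fgf21, Elovl3, Txnip, Lpin2, Klf11, Pfkfb1, Pcx, Slc25a34, Pxmp4, Pex11g, Atf5, Scap and Got2 ended. Each of these 13 also ended without 4 to 7 further chow libraries, with adjusted p up to 0.128 for Fgf21, 0.133 for Elovl3, 0.108 for Txnip and 0.137 for Pcx.

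Bile acid genes gave 0 calls in 22 tested members (7 at an unadjusted p under 0.05, against 16.5% of all genes), and cytochrome P450 genes of families 1 to 3 gave 0 in 28 (4 at an unadjusted p under 0.05, a share near that of all genes). Nr0b2, which encodes the bile acid-induced repressor SHP, stood at 24.99, 9.60, 8.39, 23.5 and 7.81 FPKM in NC sham and at 4.11, 5.62, 4.23, 3.30 and 4.80 in NC RIC. The groups were separate, with NC sham 1 and 4 well above the rest, and the gene did not pass (-1.40 ± 0.38, adjusted p = 0.0758). Cyp7a1, the rate-limiting enzyme of bile acid synthesis, stood at 33.02 ± 13.9 against 55.9 ± 10.04 FPKM (adjusted p = 0.214). Cyp1a2 was lower in every NC RIC sample, at 158 ± 40.5 against 69.8 ± 10.6 FPKM, without a call (-1.14, adjusted p = 0.0777).

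Hist1h1c, which encodes the linker histone H1.2 (chromosome 13, 23738808 to 23740367), stood at 15.6, 18.6, 16.7, 25.2 and 27.2 FPKM in NC sham and at 33.8, 90.9, 53.6, 46.4 and 61.4 in NC RIC. All NC RIC samples were higher, sample 2 most so, and the rise was 2.77-fold (1.38 ± 0.20, adjusted p = 0.00527). The histone H3.3 gene H3f3b rose from 27.2 ± 3.03 to 36.7 ± 2.27 FPKM (0.43, adjusted p = 0.0400). Further rises without overlap were those of the zinc finger genes Zfp518a (1.83 ± 0.366 to 3.17 ± 0.353 FPKM, 0.56) and Zfp955a (1.85 ± 0.304 to 3.07 ± 0.389 FPKM, 0.51), the histidine methyltransferase gene Mettl18 (1.58 ± 0.295 to 2.82 ± 0.643 FPKM, 0.56), the nuclear exporter Xpo1 (3.77 ± 0.571 to 5.80 ± 1.18 FPKM, 0.50) and the apolipoprotein L gene Apol9a (2.39 ± 0.476 to 3.96 ± 0.790 FPKM, 0.55). Their adjusted p were 0.0173, 0.0298, 0.0400, 0.0445 and 0.0466. The immunoglobulin light chain segment Igkv1-110 was listed at 0 in 3 NC sham samples and at most 0.424 FPKM in the others, against 0.659 to 1.80 in NC RIC (0.92, adjusted p = 0.0496). Segments of this family are near copies, so its value is uncertain. Igkv1-110 also averaged below 1 FPKM over the chow samples (0.165 in NC sham, 1.22 in NC RIC). It passed the filter only through the CDAHFD samples (2.03 in sham, 1.32 in RIC) and was not tested on chow alone.

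Among the falls outside the groups above, Tbc1d8, a member of the TBC domain family (chromosome 1, 39371492 to 39478755), stood at 5.89, 6.98, 6.89, 6.82 and 8.23 FPKM in NC sham and at 3.12, 3.61, 2.91, 3.40 and 2.90 in NC RIC (-0.92 ± 0.14, adjusted p = 0.00566). Palld, an actin-bundling protein, stood at 6.55, 5.40, 3.88, 3.31 and 3.86 FPKM in NC sham and at 2.20, 2.02, 2.32, 1.59 and 2.19 in NC RIC (-0.84 ± 0.13, adjusted p = 0.00566). P4ha1, a hypoxia-inducible subunit of collagen prolyl hydroxylase, stood at 3.91, 3.53, 2.55, 2.42 and 2.57 FPKM in NC sham and at 1.39, 1.56, 1.43, 1.26 and 1.02 in NC RIC (-0.76 ± 0.13, adjusted p = 0.00807). In all 3 the groups were separate, and NC sham 1 and 2 were the highest samples of Palld and P4ha1. Of 15 hypoxia responsive genes P4ha1 was the 1 that fell, and 0 rose. Mmd, a macrophage differentiation-associated membrane protein, fell from 66.3 ± 3.98 to 47.4 ± 4.18 FPKM (-0.48, adjusted p = 0.00584). The ERK phosphatase Dusp6 fell from 4.01 ± 0.661 to 2.06 ± 0.518 FPKM (-0.72, adjusted p = 0.0218), the mitochondrial ribosomal protein Mrpl53 from 10.8 ± 3.96 to 5.66 ± 0.925 FPKM (-0.79, adjusted p = 0.0445), the actin nucleator Jmy from 3.77 ± 0.294 to 2.55 ± 0.323 FPKM (-0.43, adjusted p = 0.0141) and the CDC42 exchange factor Dnmbp from 4.58 ± 0.511 to 2.87 ± 0.267 FPKM (-0.53, adjusted p = 0.0255).

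Alb rose from 34829 ± 4842 to 48982 ± 4900.4 FPKM (0.50, adjusted p = 0.0496), and its share of the summed FPKM was 7.09% ± 0.937 in NC sham and 9.74% ± 0.935 in NC RIC (n = 5 each, two-sided exact permutation p = 0.00794, the smallest this design allows). The call ended without any chow library but NC sham 4. It also ended with a common sum, median-ratio scaling, a pseudocount of 0.5, no filter and the replicate number as a block. Of 19 alternatives with a value 4 kept it. Among 15 mitochondrially encoded transcripts 1 rose and 0 fell: mt-Nd1 stood at 5585, 5572, 5476, 6342 and 5762 FPKM in NC sham and at 7292, 8025, 7773, 7989.6 and 7367 in NC RIC, without overlap (0.42, adjusted p = 0.0400). mt-Nd6 was higher in every NC RIC sample without a call, at 4979.9 ± 191 against 6029 ± 649 FPKM (adjusted p = 0.139), and mt-Nd2 stood at 10233 ± 659 against 12221 ± 955 FPKM (adjusted p = 0.162). The share of the FPKM was taken over all entries with a symbol starting with mt-, a wider set than these 15. It was 23.5% ± 1.15 in NC sham and 24.8% ± 0.9996 in NC RIC (two-sided exact permutation p = 0.0952). The 15 alone summed to 102027 to 116753 FPKM in NC sham and 110664 to 126041 in NC RIC. Of 45 nuclear-encoded respiratory chain genes 0 were called, 44 lay below 0 as deposited and 37 or 35 after median-ratio or quantile scaling, and 20 had an unadjusted p under 0.05, against 16.5% of all genes (median -0.18).

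Of 50 cytosolic ribosomal protein genes 1 fell and 46 lay below 0, or 37 and 31 after median-ratio and quantile scaling (median -0.15). Rpl3 stood at 69.95, 67.5, 65.8, 61.3 and 70.4 FPKM in NC sham and at 50.7, 53.6, 49.9, 48.96 and 55.3 in NC RIC, without overlap (-0.37 ± 0.07, adjusted p = 0.0183). Its pseudogene copy Rpl3-ps1 fell as well (-0.40, adjusted p = 0.0183), and reads may be split between them. Of 33 proteasome genes 0 were called (14 at an unadjusted p under 0.05, against 16.5% of all genes), with a median of -0.19 and 4 above 0, or 5 and 7 after those scalings. Of the called genes outside the stress, metal, conjugation and metabolism groups, Hist1h1c, Tbc1d8, Palld, P4ha1 and Mmd kept their calls when any 1 of the 19 libraries was left out. Jmy lost it without NC sham 2 or NC RIC 2 (adjusted p up to 0.0612), Dusp6 without NC sham 2 or 5 or NC RIC 2 (up to 0.0672), Zfp518a without NC sham 1 or 5 or NC RIC 2 (up to 0.0574) and Rpl3 and Rpl3-ps1 without NC sham 1, 2 or 5 or NC RIC 2 (up to 0.0616 and 0.0667). The other 9, H3f3b, Zfp955a, Mettl18, Xpo1, Apol9a, Igkv1-110, Mrpl53, Dnmbp and mt-Nd1, lost it without NC sham 1, 2 or 5 and also without 2 to 7 further chow libraries, each left out alone (up to 0.132).

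**Figure D4:**
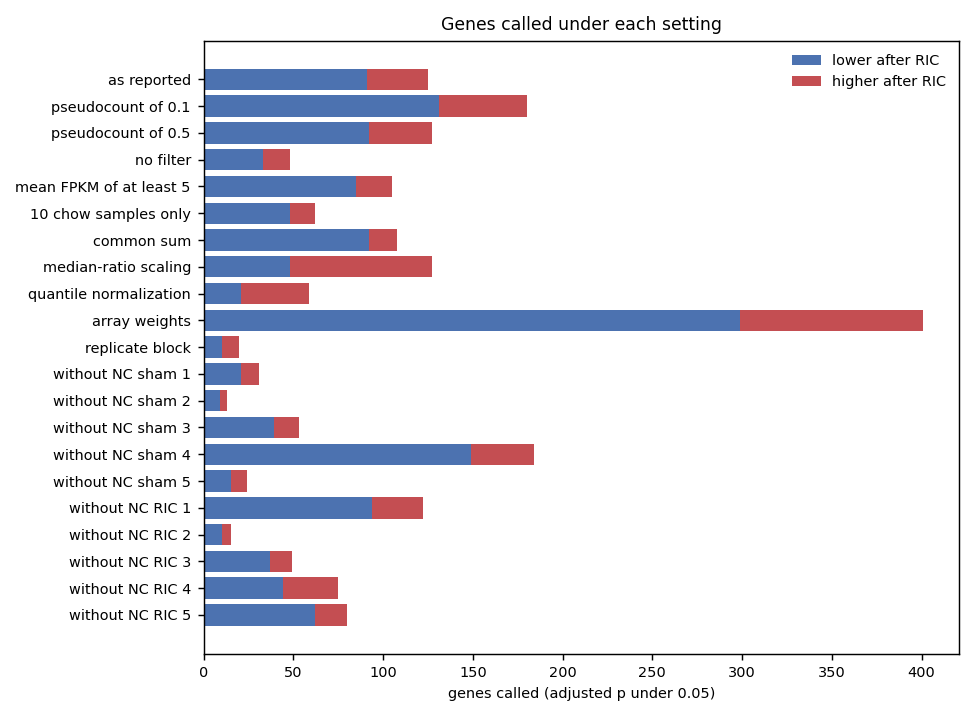
Number of genes called lower (blue) and higher (red) at an adjusted p under 0.05 as reported and under 20 alternative settings. The number is 13 without NC sham 2, 15 without NC RIC 2 and 401 with array weights, against 125 as reported.

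The lists of interferon, acute phase, clock and immediate early genes, which do not hold every such gene, gave 0 calls by limma. Of 36 interferon response genes 0 were called, 27 lay above 0, with a median of 0.10, and 4 had an unadjusted p under 0.05. Those below 0 were 9 as deposited and 3 and 4 after median-ratio and quantile scaling. Usp18, which damps interferon signalling, stood at 1.89, 2.22, 1.76, 1.56 and 1.82 FPKM in NC sham and at 2.25, 2.32, 5.01, 4.14 and 2.80 in NC RIC, without overlap (adjusted p = 0.0575). Of 27 acute phase genes 0 were called (3 at an unadjusted p under 0.05), and Saa4 stood at 82.2 ± 30.6 against 150.3 ± 41.4 FPKM (adjusted p = 0.122). Of 18 clock genes 0 were called (4 at an unadjusted p under 0.05). The clock repressors Nr1d1 (2.43 ± 1.14 against 1.21 ± 0.377 FPKM) and Bhlhe40 (7.45 ± 1.09 against 5.28 ± 0.712 FPKM) and the clock output Dbp (1.42 ± 1.24 against 2.24 ± 1.47 FPKM) had adjusted p of 0.164, 0.0893 and 0.498. Of 18 immediate early genes 0 were called (2 at an unadjusted p under 0.05). Klf10 was lower in every NC RIC sample (7.05 ± 0.774 against 3.94 ± 1.67 FPKM, adjusted p = 0.0617), and Nr4a1 stood at most at 0.258 FPKM in NC sham and at 2.47 in NC RIC 4 (adjusted p = 0.305). Nr4a1 passed the filter only through the CDAHFD samples (means of 2.26 FPKM in sham and 1.01 in RIC) and was not tested on chow alone.

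Markers of sinusoidal endothelial cells, which line the liver's capillaries, lay low without a call. All 18 tested lay below 0 (17 after median-ratio or quantile scaling), with a median of -0.32, and 6 had an unadjusted p under 0.05. Of all genes 64.8% lay below 0 as deposited and 16.5% had such a p. Pecam1 stood at 0.798, 1.10, 0.774, 0.867 and 1.73 FPKM in NC sham and at 0.597, 0.517, 0.672, 0.760 and 0.294 in NC RIC, without overlap (adjusted p = 0.173). It passed the filter only through the CDAHFD samples (means of 2.64 FPKM in sham and 1.96 in RIC). The hyaluronan receptor Lyve1 (1.72 ± 1.12 against 0.625 ± 0.300 FPKM) and the lectin Clec4g (6.44 ± 1.94 against 4.02 ± 1.58 FPKM) overlapped (adjusted p = 0.292 and 0.263). The summed FPKM of all 20 markers ranged from 27.9 to 56.1 in NC sham and from 13.2 to 34.8 in NC RIC. The 17 Kupffer cell markers summed to 142 to 170.0 FPKM in NC sham and 122 to 166 in NC RIC, the 20 stellate and fibroblast markers to 54.9 to 85.0 and 50.9 to 70.3, and the 18 B and plasma cell markers to 9.46 to 35.5 and 9.69 to 32.8. These 4 lists had 0 called members by limma (at an unadjusted p under 0.05: 6 endothelial, 1 Kupffer cell, 0 stellate and 0 B cell), and the part of cell make-up in the gene differences was not tested.

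Finally, the chow differences were set beside those of RIC on CDAHFD, where 2886 of 10577 genes (27.3%) were called by limma. No sample is shared between these comparisons. Of the 125 chow calls 47 (37.6%) were also called on CDAHFD, which is 1.63% of the CDAHFD calls. Of these, 25 were lower and 4 higher on both diets, 11 were lower on chow and higher on CDAHFD, and 7 the reverse. The diet by RIC interaction, which uses the same NC samples as the chow calls, passed for 711 genes (6.72%), among them 53 of the 125. It was 51 of 125 in a fit without CDAHFD sham 2 and 5, chosen after the data were seen.

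Hspa1b, Dnajb1 and Hspa1a fell on both diets, and by more on CDAHFD. Hspa1b went from 37.0 ± 13.1 to 1.79 ± 0.548 FPKM there (log2 difference -3.71 against -1.83 on chow, interaction adjusted p = 0.00449). Dnajb1 differed by -1.65 against -0.71 (interaction adjusted p = 0.00122) and Hspa1a by -2.65 against -0.98 (0.00230). For Hspa8 the interaction did not pass (-0.93 against -0.78, adjusted p = 0.691), nor for Palld, P4ha1, Zfp518a, Zfp955a and Cyp39a1, which were called in the same direction on both diets. Their interaction adjusted p ran from 0.0716 to 0.924.

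Other genes moved in opposite directions. Txnip fell on chow (-1.16) and rose on CDAHFD (1.53, from 30.3 to 88.7 FPKM; interaction adjusted p = 0.000892), as did Cpt1a (-0.52 and 0.43; 0.000931), Acacb (-0.58 and 0.80; 0.000254), Lpin2 (-0.62 and 0.73; 0.000576), Dnmbp (-0.53 and 0.80; 0.000254) and Jmy (-0.43 and 0.43; 0.000390). The 30 PPAR-alpha targets had a median of -0.35 on chow and 0.34 on CDAHFD, where 9 rose and 0 fell. Hamp rose on chow (1.02) and fell on CDAHFD (-0.997, from 2246 to 1184 FPKM; interaction adjusted p = 0.00295), as did Gsta1 (1.07 and -1.01; 0.000892), Mgst3 (0.60 and -0.48; 0.000390) and Apol9a (0.55 and -0.45; 0.00449). Mt1 rose on chow (2.42) and differed by 0.12 on CDAHFD, where the sham level was 84.9 FPKM (interaction adjusted p = 0.0306). For Mt2 the interaction did not pass (3.04 and 0.76; adjusted p = 0.0860). The interactions of Hspa1b, Dnajb1, Hspa1a, Txnip, Cpt1a, Acacb, Lpin2, Dnmbp, Jmy, Hamp, Gsta1, Mgst3 and Apol9a passed in all alternatives that tested them, without any 1 CDAHFD library and without CDAHFD sham 2 and 5. That of Mt1 did not pass with no filter or without NC sham 2, 4 or 5, CDAHFD sham 1 or CDAHFD RIC 2 or 3 (adjusted p up to 0.0831 over all alternatives).

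**Figure D5:**
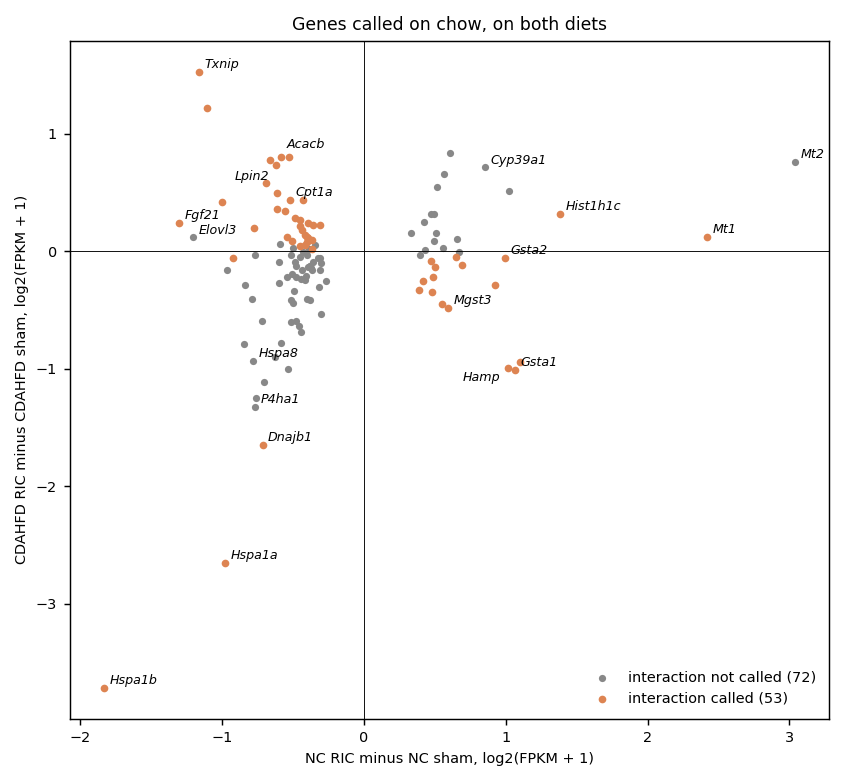
The 125 genes called on chow, with the difference NC RIC minus NC sham on the x axis and CDAHFD RIC minus CDAHFD sham on the y axis, both in log2(FPKM + 1); orange points are the 53 whose interaction passed. Hspa1b and Hspa1a lie far down on the left, Txnip at the top left, and Hamp and Gsta1 at the lower right.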

How the data were processed

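Liver RNA was sequenced in 19 samples. The authors deposited FPKM values of all samples side by side (fragments normalized for gene length and for library total). The submitters' processing notes name FastQC 0.11.9, Trimmomatic 0.38, HISAT2 2.2.1, HTSeq 0.13.5, R 3.4.1, DESeq2 1.18.1 and the build mm10. The program that made the FPKM, the annotation and the use of strand are not given in the sources used here. FPKM are relative values, so a rise of abundant transcripts lowers the others.

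Entries without a gene name (3225) were left out. Genes whose mean over the 19 samples reached 1 FPKM were tested on log2(FPKM + 1), which understates changes of low genes. One limma (3.58.1, R 4.3.3) fit with 4 groups gave both RIC contrasts and their interaction, with Benjamini-Hochberg adjustment over 10577 genes and a threshold of 0.05. Whole reads could not be recovered from the FPKM. The depth estimate rests on low values of single-exon genes, of which 12.7% to 14.1% lay within 0.02 of a whole read count, against 4% for an even spread. Alternatives were other pseudocounts, filters, scalings, array weights, a replicate block and leaving out each chow library and, added after the data were seen, each CDAHFD library. The scripts were tested on simulated data. data.table (version 1.17.8), python 3.11.15, numpy 2.4.6, pandas 2.3.3 and matplotlib 3.10.9 were used.

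The members and gene lists were chosen with earlier results of these data known. Genes named were the 12 largest rises and 12 largest falls among called genes without overlap, leaving out predicted, clone and pseudogene symbols, up to 4 members of each list with the smallest p, and a fixed list. The text gives 24 of 24, 44 of 199 and 19 of 52 of these. It also gives 22 genes outside the rule, chosen after their values were seen, as were the motifs and 4 genes given by symbol only. Some results are not reported here.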

Additional observations from a re-analysis of the deposited data

Results flagged for a closer look

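The effect of RIC differed between the diets for 29 of the genes named above that were called on chow, by limma's interaction term at an adjusted p under 0.05. The interaction is the CDAHFD difference minus the chow difference in log2(FPKM + 1), and it uses the same NC samples as the chow calls. It was above 0 for Acacb (1.38), Cpt1a (0.95), Dnmbp (1.33), Fgf21 (1.54), Jmy (0.86), Klf11 (1.10), Lpin2 (1.35), Paqr9 (0.97), Pcx (0.64), Pex11g (0.71), Rpl3 (0.38), Rpl3-ps1 (0.47), Scap (0.53), Slc25a34 (1.27), Tbc1d8 (0.87) and Txnip (2.69). It was below 0 for Apol9a (-0.996), Dnajb1 (-0.94), Gsta1 (-2.08), Gsta2 (-1.06), Hamp (-2.01), Hist1h1c (-1.07), Hspa1a (-1.68), Hspa1b (-1.88), Igkv1-110 (-1.21), Mgst3 (-1.08), Mt1 (-2.30), Xpo1 (-0.64) and mt-Nd1 (-0.67). At least 1 alternative ended the interaction call of Fgf21, Gsta2, Hist1h1c, Igkv1-110, Mt1, Pcx, Rpl3, Rpl3-ps1, Tbc1d8, Xpo1 and mt-Nd1. Leaving out single CDAHFD libraries, added after the data were seen, ended it for Mt1, Gsta2, Fgf21, Hist1h1c, Rpl3, Xpo1 and Igkv1-110 (adjusted p up to 0.0929). Without CDAHFD sham 2 and 5 it ended for Fgf21 (adjusted p = 0.0666), Hist1h1c (adjusted p = 0.0654) and Xpo1 (adjusted p = 0.0555).

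In 12 of 168 groups of 5 examined, 1 sample lay far from the others, where chance marks about 1 group in 20. NC sham 3 was apart for Mt1 (70.3 FPKM), Mt2 (171) and Gstm1 (144), NC sham 4 for Dbp (3.61) and mt-Nd2 (11388), NC sham 1 for Klf11 (4.63) and Zfp955a (1.32), NC sham 2 for Gsta1 (0.481) and NC sham 5 for Klf10 (8.40). NC RIC 4 was apart for Igfbp1 (247 FPKM) and Nr4a1 (2.47), and NC RIC 3 for Hspa8 (331).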

How the results depend on the processing

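Against 34 genes called higher and 91 lower, the counts were 49 and 131 with a pseudocount of 0.1, 35 and 92 with 0.5, 15 and 33 with no filter, 20 and 85 with a mean FPKM of at least 5, and 14 and 48 in the 10 chow samples alone. They were 16 and 92 with a common sum, 79 and 48 after median-ratio scaling, 38 and 21 after quantile normalization and 102 and 299 with array weights. Leaving out any 1 of the 19 libraries gave 4 to 35 higher and 9 to 149 lower. The labels do not say whether the replicate numbers pair the samples. Deviations of same-numbered samples correlated at -0.12 to 0.176, and 4 of 10 samples correlated best with their own number. So few and weak values cannot decide whether same-numbered samples belong together. With the number as a replicate block 10 genes were called higher and 10 lower, and 18 of the 125 reported calls held. The interaction passed for 53 of the 125 genes, for 35 with a mean FPKM of at least 5 (75 of the 125 were tested), for 34 with the replicate block and for 40 to 56 without 1 library, all chosen after the data were seen. For the 50 called genes named, 594 of their alternative values kept the call, 390 lost it and 0 reversed, leaving out CDAHFD libraries apart. Quantile normalization gave no value for Alb, whose difference it sets to 0. The cause of these changes was not tested. The depth per gene is not given by FPKM, so counting error is unknown.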
